A study of Mus musculus with 35 samples.

Results

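The comparison described here set CD8+ T cells kept for 24 h at pH 7 with 200 IU/mL IL-2 against the same kind of cells kept for 24 h at pH 7.4 with the same dose of IL-2. All libraries of these groups were taken, 5 at pH 7 and 5 at pH 7.4, which is 10 of the 35 libraries of the series, and all genes counted in them were considered. The cells were OT-I cytotoxic T lymphocytes (CTLs). OT-I is a mouse line whose T cells carry a transgenic receptor for an ovalbumin peptide presented by MHC class I. CD8+ cells had been isolated from spleen by removing the other cells, primed on plate-bound antibody to CD3 with antibody to CD28, and expanded in IL-2, so every group had been activated and had seen the cytokine beforehand. The medium held low glucose, and hydrochloric acid was used to bring it to each pH. Dead cells were removed on a Ficoll gradient before RNA was extracted. The series also held a starting group, taken at 0 h. The remaining groups, kept for 24 h, were pH 7.4, pH 7 and pH 6.6 without IL-2, and pH 6.6 with IL-2. Each of these groups had 5 libraries. Effector CTLs of a single transgenic receptor, cultured alone, are a simplified model of the T cells of a tumour. The question was which transcripts respond to a mild acidification while IL-2 is present.

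Interleukin 2 acts on CTLs through a receptor whose chains recruit the kinases JAK1 and JAK3, and these activate the transcription factor STAT5. The same signal maintains c-Myc and the kinase complex mTORC1, which together drive the uptake of nutrients, glycolysis, the making of ribosomes and the synthesis of protein in dividing T cells. Tumours are acid largely because their cells export lactate with protons. T cells read external protons through G protein coupled receptors and exchange acid and base through membrane transporters.

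Each library is named by the number in its label, and libraries of the same number were treated as pairs. The labels do not say that the numbers are separate animals or cultures, so p-values refer to the spread between these libraries. The total count on genes was 24278665 to 28273801 per library at pH 7 and 23505962 to 30734999 at pH 7.4. Levels are given in CPM, the standard unit that sets the count of a gene against the total of its library, here scaled by the TMM method. Changes are given as log2 fold changes with their standard error (SE) from 1 model fitted to all 35 libraries. A gene was called where its Benjamini-Hochberg adjusted p in edgeR's quasi-likelihood test was under 0.05. Markers of CD8+ T cells were abundant in all 10 libraries: the sum of Cd3d, Cd3e, Cd3g, Cd8a and Cd8b1 was 2894 to 3333 CPM at pH 7 and 2220 to 2797 at pH 7.4. Markers of other cells were low, except in the NK cell list. The myeloid list stayed at 0.368 to 0.803 CPM at pH 7 and 0.369 to 0.703 at pH 7.4 over its 5 genes, with Csf1r at 0 in every library. The B cell list was at 2.54 to 3.69 CPM and 1.99 to 2.66 CPM over 4 genes, 3 of which never reached 1 CPM, with Ms4a1 at 0. The NK cell list was at 577 to 609.4 CPM at pH 7 and 596 to 704.9 at pH 7.4, with Ncr1 near 0. Most of that sum was Eomes, at 528.7 to 559.1 CPM at pH 7 and 552.1 to 661.9 at pH 7.4. Klrb1c was at 44.77 to 53.45 CPM at pH 7 and 42.97 to 45.77 at pH 7.4. The part of NK cells in the results below was not tested. The dendritic cell list was at 0.578 to 1.23 and 0.331 to 0.568 CPM, and the erythroid list at 0 to 0.0368 CPM and at 0. The CD4 T cell list, Cd4 and Foxp3, was at 1.95 to 3.39 CPM at pH 7 and 0.910 to 1.60 CPM at pH 7.4, and its part in the results below was not tested.

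The mild acidification changed many transcripts by small amounts. Of the 13819 genes that passed the filter on low counts, 2623 were called (19%), 1264 of them higher at pH 7 (9.15%) and 1359 lower (9.83%). The median change of the genes that rose was 0.47 on the log2 scale, and the genes that fell decreased by a median of 0.34 on the same scale. Of the called genes 1777 changed by less than 0.5 and 203 by at least 1, and 145 of those 203 were rises. The median over all genes tested was -0.01. The sign was the same in 5 of 5 pairs for 2494 of the 2623. In 1823 genes (13.2%) the groups did not overlap at all, with 631 higher (4.57%) and 1192 lower (8.63%) at pH 7. In bulk RNA, fewer cells that express a gene and less RNA of it per cell cannot be told apart. The number of calls was 1374 without replicate 2 and 1283 without replicate 3. When only the 10 libraries of these groups were fitted, with the pairs kept, 4388 of 12516 genes were called (35.1%), 2305 higher (18.4%) and 2083 lower (16.6%), so counts from that fit are read against these shares.

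**Figure D1:**
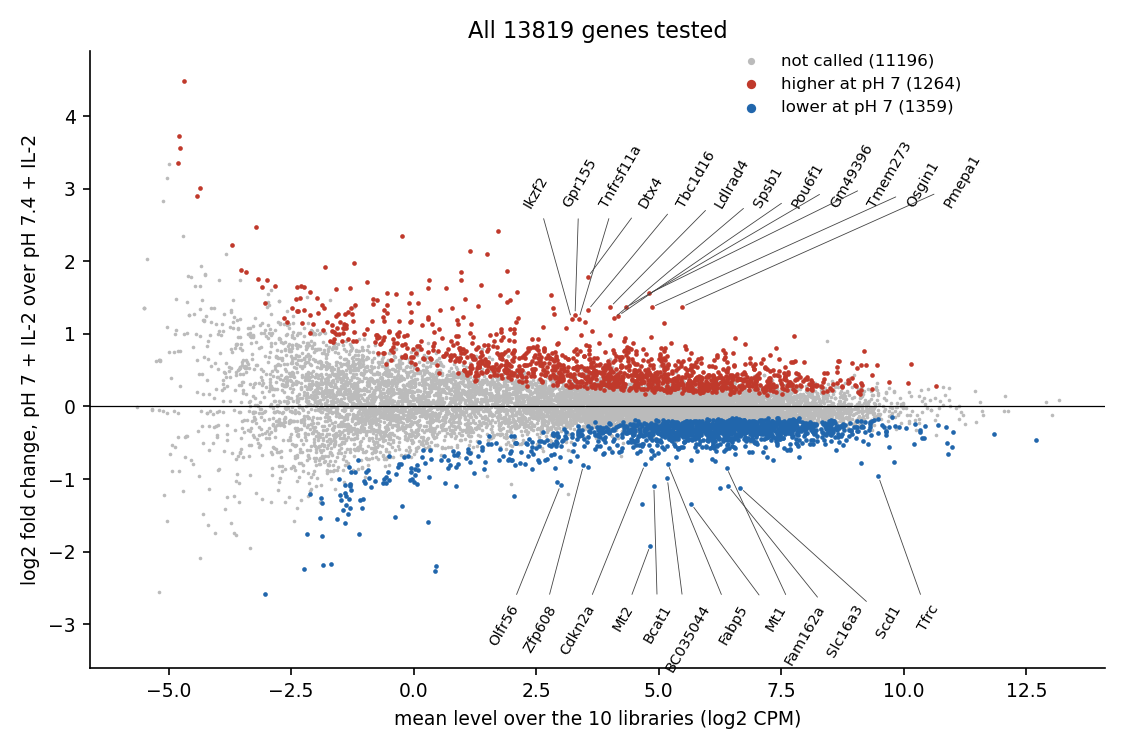
Log2 fold change (pH 7 over pH 7.4, both with IL-2) against mean level in log2 CPM over the 10 libraries, 1 point for each of the 13819 genes. Red points are the 1264 genes called higher, blue points the 1359 called lower and grey points the 11196 not called, and the 12 largest rises and falls among protein-coding genes above the level limit are labelled. Most called genes at high levels lie within 1 unit of 0.

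Among protein-coding genes with a mean of at least 3 log2 CPM that moved the same way in 5 of 5 pairs, the 12 largest rises were led by Dtx4, which encodes an E3 ubiquitin ligase of the Deltex family tied to Notch signalling. In replicates 1 to 5 it was at 9.25, 5.83, 7.18, 5.13 and 5.01 CPM at pH 7.4, and at 30.6, 21.2, 24.4, 19.5 and 15.9 CPM at pH 7. The lowest library at pH 7 stood above the highest at pH 7.4, and the change was 1.78 (SE 0.16, adjusted p = 6.28e-09). Tmem273, which encodes a transmembrane protein, came next. It was at 26.9, 13.4, 12, 19 and 15 CPM at pH 7.4 and at 55.8, 48.4, 43.7, 51.3 and 38.3 CPM at pH 7, again with no overlap, a change of 1.56 (SE 0.18, adjusted p = 7.3e-07).

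Pmepa1 and Ldlrad4 encode related membrane proteins known to dampen TGF-beta signalling. Pmepa1 was at 56.4, 24.0, 25.2, 24.2 and 18.2 CPM at pH 7.4 and at 86.8, 76.6, 85.8, 63.9 and 54.8 CPM at pH 7. Replicate 1 was high at both values of pH, so that its pH 7.4 value lay within the range of the pH 7 group, while each pair rose, with a change of 1.37 (SE 0.15, adjusted p = 1.11e-07). Ldlrad4 rose by 1.37 as well (SE 0.14, adjusted p = 3.19e-08). Its exons overlap a gene of the opposite strand over 52.1% of their length, and 51% of its 50-base windows were unique to it. Osgin1, an oxidative stress response gene, was at 14.8 to 25.1 CPM at pH 7.4 and 36.4 to 51.7 CPM at pH 7 and rose by 1.37 (SE 0.19, adjusted p = 1.28e-05).

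Transcription factors were among these rises. Pou6f1, a POU domain factor, was at 17.4, 10.7, 12, 10.9 and 8.90 CPM at pH 7.4 and at 34.7, 28.4, 35.2, 22.6 and 21.4 CPM at pH 7, a change of 1.25 (SE 0.11, adjusted p = 1.79e-09) without overlap. Ikzf2, which encodes Helios, a zinc finger factor of the Ikaros family, was at 4.38 to 8.96 CPM at pH 7.4 and 9.97 to 19.8 CPM at pH 7, a change of 1.21 (SE 0.18, adjusted p = 2.13e-05). The others were Gm49396 (1.36), Tbc1d16 (1.33), which encodes a Rab GTPase-activating protein, Gpr155 (1.26), which encodes a lysosomal membrane protein, Spsb1 (1.22), an adaptor of ubiquitin ligases, and Tnfrsf11a (1.21), the receptor RANK. The count of Gm49396 is uncertain, since 72.8% of its exon bases also belong to a second gene read in the same direction. The groups of 6 of these 12 genes did not overlap.

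The largest fall was in the metallothioneins Mt2 and Mt1, small cysteine-rich proteins that bind zinc and copper and whose transcription is known to follow zinc through the factor MTF1. Mt2 was at 63.2, 44.6, 39.8, 71.0 and 66.4 CPM at pH 7.4 and at 21.9, 10.3, 10.1, 20.2 and 13.8 CPM at pH 7. Every pH 7 library lay below every pH 7.4 library, and the change was -1.92 (SE 0.18, adjusted p = 1.04e-08). Mt1 was at 75.7, 67.3, 65.3, 105 and 101 CPM at pH 7.4 and at 35.2, 25, 27.1, 41.9 and 32.2 CPM at pH 7, likewise without overlap, a change of -1.34 (SE 0.15, adjusted p = 2.89e-07). All of Mt1 is unique (100% of its 50-base windows), whereas 54.2% of the Mt2 windows are unique and a gene of the opposite strand covers 73.5% of its exons. Because these neighbouring genes fell together, the 250 bases upstream of each RefSeq start (build GRCm38.p6) are shown, 5′ to 3′ on the gene's strand, with matches to the core of the metal response element, TGCNCNC on either strand, in capitals. Mt1 (chr8:94178839-94179088, plus strand) has 1 match and Mt2 (chr8:94172368-94172617, plus strand) has 5, of which 3 are on the plus strand. Such a match was found in 44.4% of 32851 promoters of this length, so it is common, and a match describes letters only.
Mt1: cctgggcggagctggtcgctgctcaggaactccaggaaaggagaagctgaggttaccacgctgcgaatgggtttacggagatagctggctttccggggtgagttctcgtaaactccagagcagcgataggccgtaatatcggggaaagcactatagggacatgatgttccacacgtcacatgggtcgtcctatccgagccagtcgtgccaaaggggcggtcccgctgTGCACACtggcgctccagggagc
Mt2: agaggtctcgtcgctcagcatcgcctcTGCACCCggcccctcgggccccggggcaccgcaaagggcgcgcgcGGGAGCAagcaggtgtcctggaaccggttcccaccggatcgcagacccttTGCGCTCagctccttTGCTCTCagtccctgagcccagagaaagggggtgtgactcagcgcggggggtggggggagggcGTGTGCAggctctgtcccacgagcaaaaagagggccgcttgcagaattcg

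The remaining large falls were in genes of metabolism and growth. Scd1, which encodes the stearoyl-CoA desaturase that makes monounsaturated fatty acids, was at 85.1, 167, 137, 155 and 229 CPM at pH 7.4 and at 57.5, 67.3, 58.6, 74.2 and 98.5 CPM at pH 7. It fell in every pair, as the rule of choice required, by 1.12 (SE 0.19, adjusted p = 0.000153), although replicate 1 at pH 7.4 lay inside the pH 7 range. Bcat1, which encodes the cytosolic aminotransferase of branched-chain amino acids, went from 33.9, 45.7, 40.0, 49.0 and 51.4 CPM to 24.0, 20.4, 16.9, 20.02 and 21.8 CPM, with no overlap (-1.09, SE 0.13, adjusted p = 6.54e-07). Tfrc, the transferrin receptor for iron uptake, went from 901, 1208, 1102, 915 and 897 CPM to 497, 522, 475, 498 and 575 CPM (-0.96, SE 0.13, adjusted p = 3.23e-06). The groups did not overlap. Tfrc was the single called member of a list of 10 iron genes, whose median was -0.13.

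Slc16a3, which encodes the lactate and proton exporter MCT4, was at 26.6, 154, 143, 193 and 227 CPM at pH 7.4 and at 20.7, 78.7, 78.5, 77.2 and 82.2 CPM at pH 7. Replicate 1 was far below the other libraries in both groups. The change was -1.10 (SE 0.34, adjusted p = 0.024), and it was -1.16 with an adjusted p of 3.24e-05 without replicate 1, whereas the call was lost without any one of the other replicates (adjusted p from 0.0578 to 0.116). Fam162a fell by 0.84, Zfp608 by 0.81, Cdkn2a by 0.79, Fabp5, a fatty acid binding protein, by 0.79, Olfr56 by 1.08 and BC035044 by 0.99. The ranges of the groups did not overlap in 7 of the 12 falls, and all 24 genes were called without replicate 1, with rises from 1.22 to 1.798 and falls from -0.81 to -2.04.

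**Figure D2:**
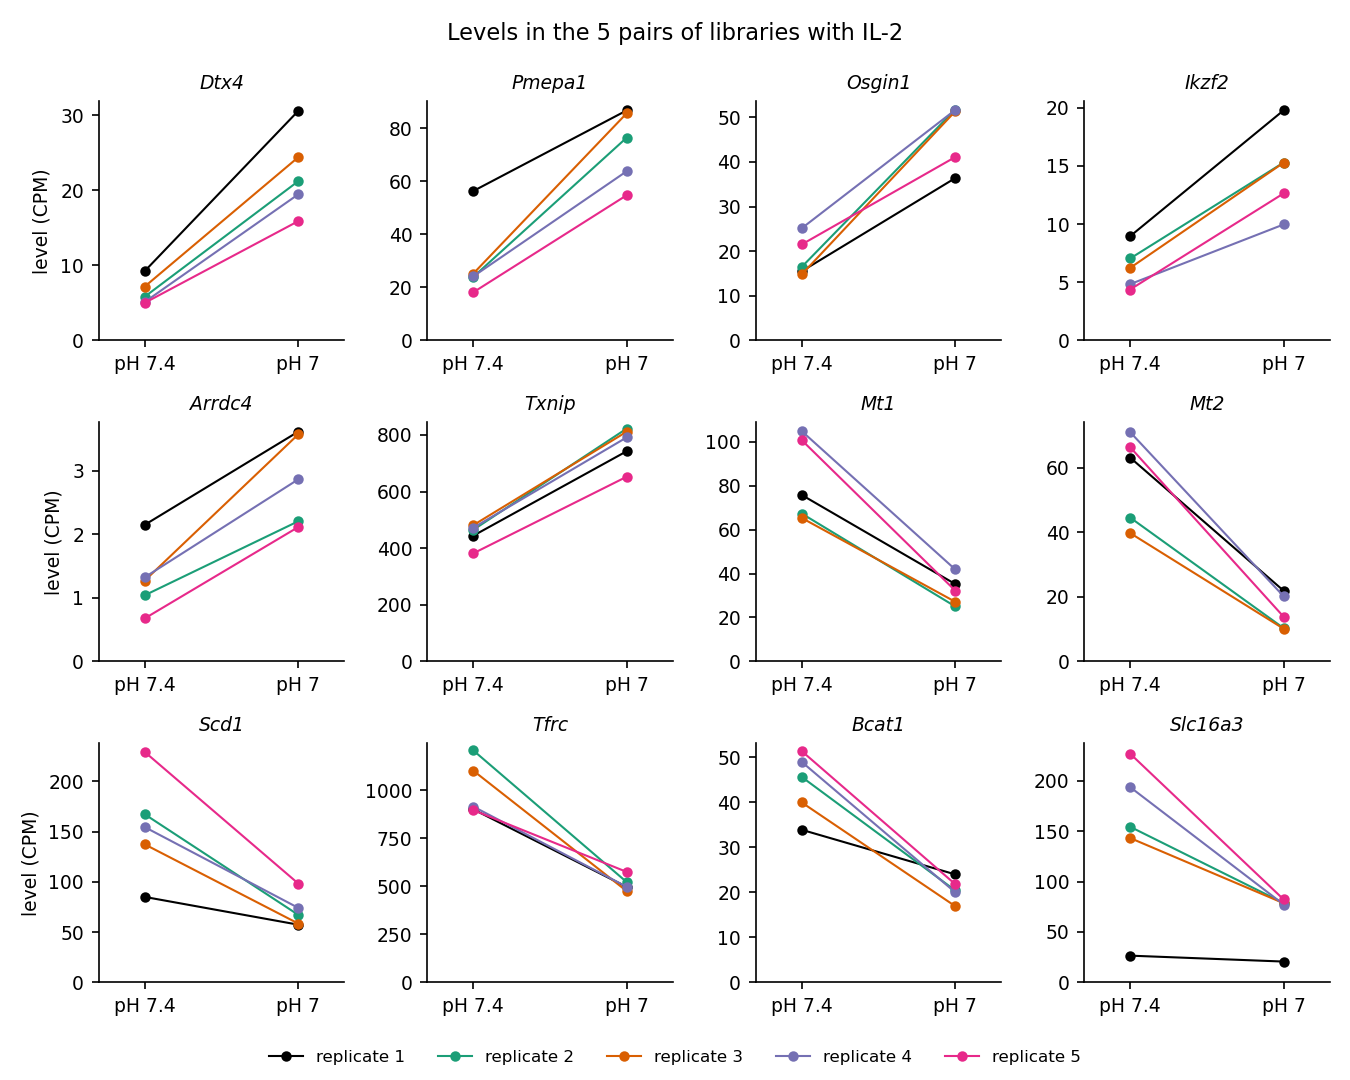
Levels (CPM, linear axis from 0) of 12 genes in the 5 pairs of libraries, each line 1 pair and each colour 1 replicate number. In every panel all 5 lines run the same way, which was a condition of choice for all panels except Txnip and Arrdc4. Replicate 1 stands apart in Pmepa1 and Slc16a3.

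Txnip and Arrdc4 encode arrestin-domain proteins that restrain glucose uptake and are transcribed by the glucose-sensing factor MondoA (gene Mlxip). Txnip was at 444, 465, 481, 472 and 382 CPM at pH 7.4 and at 742, 822, 811, 791 and 652 CPM at pH 7, a rise of 0.77 (SE 0.09, adjusted p = 3.99e-07) with no overlap. Arrdc4 was low, at 2.15, 1.04, 1.27, 1.32 and 0.677 CPM against 3.62, 2.21, 3.57, 2.87 and 2.11 CPM, and rose in each pair by 1.14 (SE 0.19, adjusted p = 7.77e-05), with the highest pH 7.4 library above the lowest pH 7 library. The list of 5 MondoA response genes tested counts Mlxip as a member. In it 3 rose, namely Txnip, Arrdc4 and Mlxip, and 1 fell (none fell without any one of replicates 2 to 5), with a median of 0.35. The rise of Mlxip was 0.35 (SE 0.10, adjusted p = 0.0182), and it was not called without replicate 2 or replicate 3 (adjusted p 0.0998 and 0.108). The upstream sequences of both genes are shown in the same way, with CACGNG, the letters of a carbohydrate response half-site, in capitals on either strand. Arrdc4 (chr7:68749239-68749488, minus strand) has 1 match, the palindrome CACGTG, and Txnip (chr3:96557707-96557956, plus strand) has 4. The half-site occurs in 23.5% of the 32851 promoters and CACGTG in 6.02%.
Arrdc4: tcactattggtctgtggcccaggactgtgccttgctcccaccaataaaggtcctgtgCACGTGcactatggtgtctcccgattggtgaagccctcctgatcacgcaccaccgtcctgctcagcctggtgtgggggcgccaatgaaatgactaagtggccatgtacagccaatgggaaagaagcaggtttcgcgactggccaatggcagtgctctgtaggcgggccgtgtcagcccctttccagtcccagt
Txnip: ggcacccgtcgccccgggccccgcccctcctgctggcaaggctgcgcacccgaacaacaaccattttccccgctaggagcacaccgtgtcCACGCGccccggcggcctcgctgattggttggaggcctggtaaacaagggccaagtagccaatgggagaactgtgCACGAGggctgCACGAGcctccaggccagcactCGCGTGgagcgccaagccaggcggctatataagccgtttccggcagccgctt

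Of 54 tested genes of ribosome biogenesis 39 fell and none rose, with a median change of -0.38 and medians from -0.51 to -0.28 in the 5 pairs. The number that fell was 23 without replicate 3 and 27 without replicate 2. Ncl, which encodes nucleolin, an abundant protein of the nucleolus, was at 2563, 2539, 2563, 2243 and 2481 CPM at pH 7.4 and at 1881, 1508, 1356, 1744 and 1957 CPM at pH 7. The groups did not overlap, and the change was -0.55 (SE 0.12, adjusted p = 0.00101). The assembly factors Pno1 (-0.62), Grwd1 (-0.59) and Wdr12 (-0.57) fell without overlap as well. RNA polymerase I and III subunits had a median of -0.21 with 3 of 17 lower (1 without any one of replicates 2, 3 and 4, 5 without replicate 1, and 11 with only the groups compared). Cytosolic ribosomal proteins had 6 of 81 lower (3 without replicate 3, and 20 with only the groups compared) and a median of -0.06. In the fit of all libraries that share, 7.41%, was below the 9.83% of all genes. With only the groups compared, the 20 of 81 were instead above the 16.6% of all genes in that fit. An E-box, CACGTG, the letters bound by MYC and its partners, was in 3 of 51 upstream sequences of the ribosome biogenesis genes (5.88%), beside the 6.02% in all promoters.

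The MYC, MAX and MXD network of transcription factors had 3 of 11 members higher and 3 lower (1 lower without replicate 5). Myc was at 148, 164, 173, 142 and 174 CPM at pH 7.4 and at 136, 129, 133, 109 and 108 CPM at pH 7. Each pH 7 library was below each pH 7.4 library, and the fall of 0.38 (SE 0.11, adjusted p = 0.0148) was not called without replicate 5 (adjusted p = 0.0528). Mycn, its paralogue, fell by 0.57 (SE 0.10, adjusted p = 9.95e-05). Mxd1 and Mxd4, which encode repressors that compete with MYC for the partner MAX, rose by 0.59 (SE 0.10, adjusted p = 8.61e-05) and 0.61 (SE 0.11, adjusted p = 0.000129). Mxd1 went from 24.5 to 31.3 CPM at pH 7.4 to 37.6 to 47.3 CPM at pH 7.

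Many translation genes fell too. Of the 20 aminoacyl-tRNA synthetases, the enzymes that load amino acids onto tRNA, 17 fell and none rose, with a median of -0.36. Nars, for asparagine, was at 208, 250, 241, 262 and 293 CPM at pH 7.4 and at 171, 166, 150, 173 and 180 CPM at pH 7, a change of -0.58 (SE 0.07, adjusted p = 2.78e-06). Tars, for threonine, fell by 0.56 (SE 0.06, adjusted p = 1.5e-07), Iars, for isoleucine, by 0.57 and Cars, for cysteine, by 0.73. Of 37 translation initiation factors 26 fell (12 without replicate 3, 17 without replicate 2), with a median of -0.28. Eif4ebp1, which encodes a repressor of cap-dependent translation, fell by 0.71 (SE 0.14, adjusted p = 0.000601).

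ATF4 is the transcription factor of the amino acid response, and 16 of 28 genes on its list fell and none rose, with a median of -0.39. Asns, which encodes asparagine synthetase, was at 70.3, 82.5, 79.6, 96.3 and 121 CPM at pH 7.4 and at 60.6, 50.2, 48.4, 64.5 and 70.8 CPM at pH 7. Every pair fell, by 0.62 in the fit (SE 0.12, adjusted p = 0.000387), and only the highest pH 7 library reached the lowest pH 7.4 library. Slc7a5, the large neutral amino acid transporter, went from 302, 304, 266, 295 and 304 CPM to 216, 181, 167, 164 and 190 CPM without overlap (-0.70, SE 0.15, adjusted p = 0.00106). Asns is shown as a member of a list in which 16 genes fell and none rose: the 250 bases upstream of its RefSeq start (chr6:7693210-7693459, minus strand) hold 1 match, in capitals, to TGATGNAA, the letters of an amino acid response element. Of 29 upstream sequences of ATF4 list genes 6 had such a match (20.7%), against 3.45% of all promoters, and 25 of the 28 genes had a sequence. The list was written from general knowledge of ATF4, so this share describes the list and not the change at pH 7.
Asns: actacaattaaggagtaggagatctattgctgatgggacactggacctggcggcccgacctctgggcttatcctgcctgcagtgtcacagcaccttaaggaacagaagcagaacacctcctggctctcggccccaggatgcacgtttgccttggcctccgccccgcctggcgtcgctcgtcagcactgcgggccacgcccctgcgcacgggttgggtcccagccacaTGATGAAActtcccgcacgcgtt

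Enzymes that supply amino acids and carbon units were lower in part. Of 16 serine and one-carbon enzymes 9 fell, with a median of -0.36. Shmt2, which makes glycine and a one-carbon unit in mitochondria, was at 247 to 305 CPM at pH 7.4 and 173 to 209 CPM at pH 7 and fell by 0.55 (SE 0.11, adjusted p = 0.000923). Psat1, of serine synthesis, fell by 0.46, and Ahcy, which hydrolyses S-adenosylhomocysteine, by 0.55, though only 31.3% of Ahcy windows are unique to it. Of 19 glutamine and proline enzymes 10 fell (6 without replicate 2 or 3) with a median of -0.26, and of 19 amino acid transporters 7 fell (4 without replicate 2 or 4) with a median of -0.22. Polyamine enzymes had 3 of 12 lower and a median of -0.25, with Srm, spermidine synthase, down by 0.62 (SE 0.15, adjusted p = 0.00421). Nucleotide synthesis genes had 10 of 29 lower (5 without replicate 2 or 3) and 1 higher, with a median of -0.21.

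Glycolysis had the lowest median of the 56 lists, -0.50, with 8 of 19 genes lower and none higher. The pairs differed widely, from -0.82 to -0.14, and the number lower was 13 without replicate 1, 4 without replicate 5 and 14 with only the groups compared. Ldha, lactate dehydrogenase A, was at 1402, 2465, 2462, 2825 and 3308 CPM at pH 7.4 and at 1116, 1627, 1656, 1691 and 1699 CPM at pH 7. Replicate 1 was low in both groups, each pair fell, and the change was -0.66 (SE 0.12, adjusted p = 0.000221). Tpi1, triosephosphate isomerase, fell by 0.78 (SE 0.19, adjusted p = 0.00367). Genes of the response to HIF, the hypoxia factor, had 7 of 21 lower and 1 higher, with a median of -0.34. Their count of falls was 2 without replicate 2 or replicate 5, 4 without replicate 3 and 1 without replicate 4, and none rose without any one of replicates 2 to 5. With only the groups compared, 12 HIF genes, 6 polyamine enzymes and 17 nucleotide synthesis genes were called lower. Fatty acid synthesis genes had 6 of 15 lower (3 without replicate 3 or 4) with a median of -0.19, Scd2, a paralogue of Scd1, among them at -0.76 (SE 0.12, adjusted p = 2.55e-05). Cholesterol synthesis genes had 4 of 24 lower and a median of -0.17, with 7 lower without replicate 1 and none called when any one of replicates 2 to 5 was left out.

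Genes that handle acid and lactate did not move as one. Of 22 acid-base transporters 3 rose and 4 fell (1 without replicate 2 or 3, 2 without replicate 4), with a median of 0.00, and with only the groups compared 7 were called each way. Slc16a1, the lactate transporter MCT1, went from 209, 210, 194, 182 and 179 CPM to 169, 139, 127, 138 and 149 CPM (-0.44, SE 0.11, adjusted p = 0.00624), a call lost without replicate 2 or 3 (adjusted p 0.0546 and 0.059). Bsg, the chaperone of these lactate transporters at the membrane, fell by 0.52 (SE 0.11, adjusted p = 0.000726). Slc4a11, a membrane transporter of the bicarbonate carrier family, rose by 0.72 (SE 0.12, adjusted p = 5.15e-05), from 5.66 to 11.1 CPM at pH 7.4 to 8.38 to 15.96 CPM at pH 7. Of 18 V-ATPase subunits, the pump that acidifies lysosomes, 1 was higher and 2 were lower (none without replicate 3, and 1 without replicate 1, 2 or 4), with a median of -0.10.

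Among receptors that sense protons, Gpr65 (TDAG8) was at 61.9 to 81.4 CPM at pH 7.4 and 57.6 to 77.7 CPM at pH 7 (-0.14, adjusted p = 0.268), and Gpr132 at 70.4 to 80.3 CPM and 74.1 to 102 CPM (0.19, adjusted p = 0.104). Genes that cAMP and CREB induce had a median of 0.24 with 3 of 18 higher and 1 lower. The 3 were 5 without replicate 5 and 10 with only the groups compared. Crem, a CREB family factor, was among the members not called (-0.13, adjusted p = 0.481).

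Many genes of protein turnover and folding fell, by small amounts. Of 37 proteasome genes 29 fell (17 without replicate 3, 19 without replicate 2) with a median of -0.30 and pair medians from -0.36 to -0.24. Psmc1, an ATPase of the proteasome's cap, was at 195, 199.9, 208, 192 and 219 CPM at pH 7.4 and at 146, 145, 140, 155 and 165 CPM at pH 7, a fall of 0.43 (SE 0.07, adjusted p = 5.85e-05). Heat shock genes had 14 of 23 lower and a median of -0.33, with Hspd1, the mitochondrial chaperonin, at -0.60 (SE 0.10, adjusted p = 5.98e-05) and Hspa9, the mitochondrial HSP70, at -0.48 (SE 0.07, adjusted p = 1.92e-05). Only 57.9% of Hspd1 windows are found in no other gene. Chaperones of the endoplasmic reticulum and the unfolded protein response had 13 of 22 lower and 2 higher (none without replicate 5, and 1 without any one of the others), with a median of -0.28, Hsp90b1 (GRP94) among them at -0.43 (SE 0.09, adjusted p = 0.00103). In the lists of ribosome biogenesis, aminoacyl-tRNA synthetases, initiation factors, ATF4, serine and one-carbon enzymes, glycolysis, proteasome and heat shock, where edgeR called no gene higher, the number higher was 0 also at an unadjusted p under 0.05 and 0 by DESeq2. With only the groups compared, 1 synthetase was called higher.

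Genes of mitochondria were lower in part. Of 76 mitochondrial ribosomal proteins 38 fell (18 without replicate 3, 22 without replicate 2) and 1 rose (none without replicate 2, 3 or 4), with a median of -0.27. Mrps18b was at 26.9 to 30.2 CPM at pH 7.4 and 18.2 to 21.6 CPM at pH 7, a change of -0.54 (SE 0.08, adjusted p = 1.78e-05), and 69.8% of its windows are its own. Of 72 nuclear genes of oxidative phosphorylation 14 fell (6 without replicate 3, 8 without replicate 2, 35 with only the groups compared) with a median of -0.20. Atp5b, the beta subunit of the ATP synthase, fell by 0.35 (SE 0.06, adjusted p = 4.2e-05) without overlap. TCA cycle genes had 10 of 27 lower (4 without replicate 3, 6 without replicate 2) and a median of -0.17. Of 7 tested transcripts of the mitochondrial genome 1 fell (none without any one of replicates 1 to 4), with a median of -0.18.

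**Figure D3:**
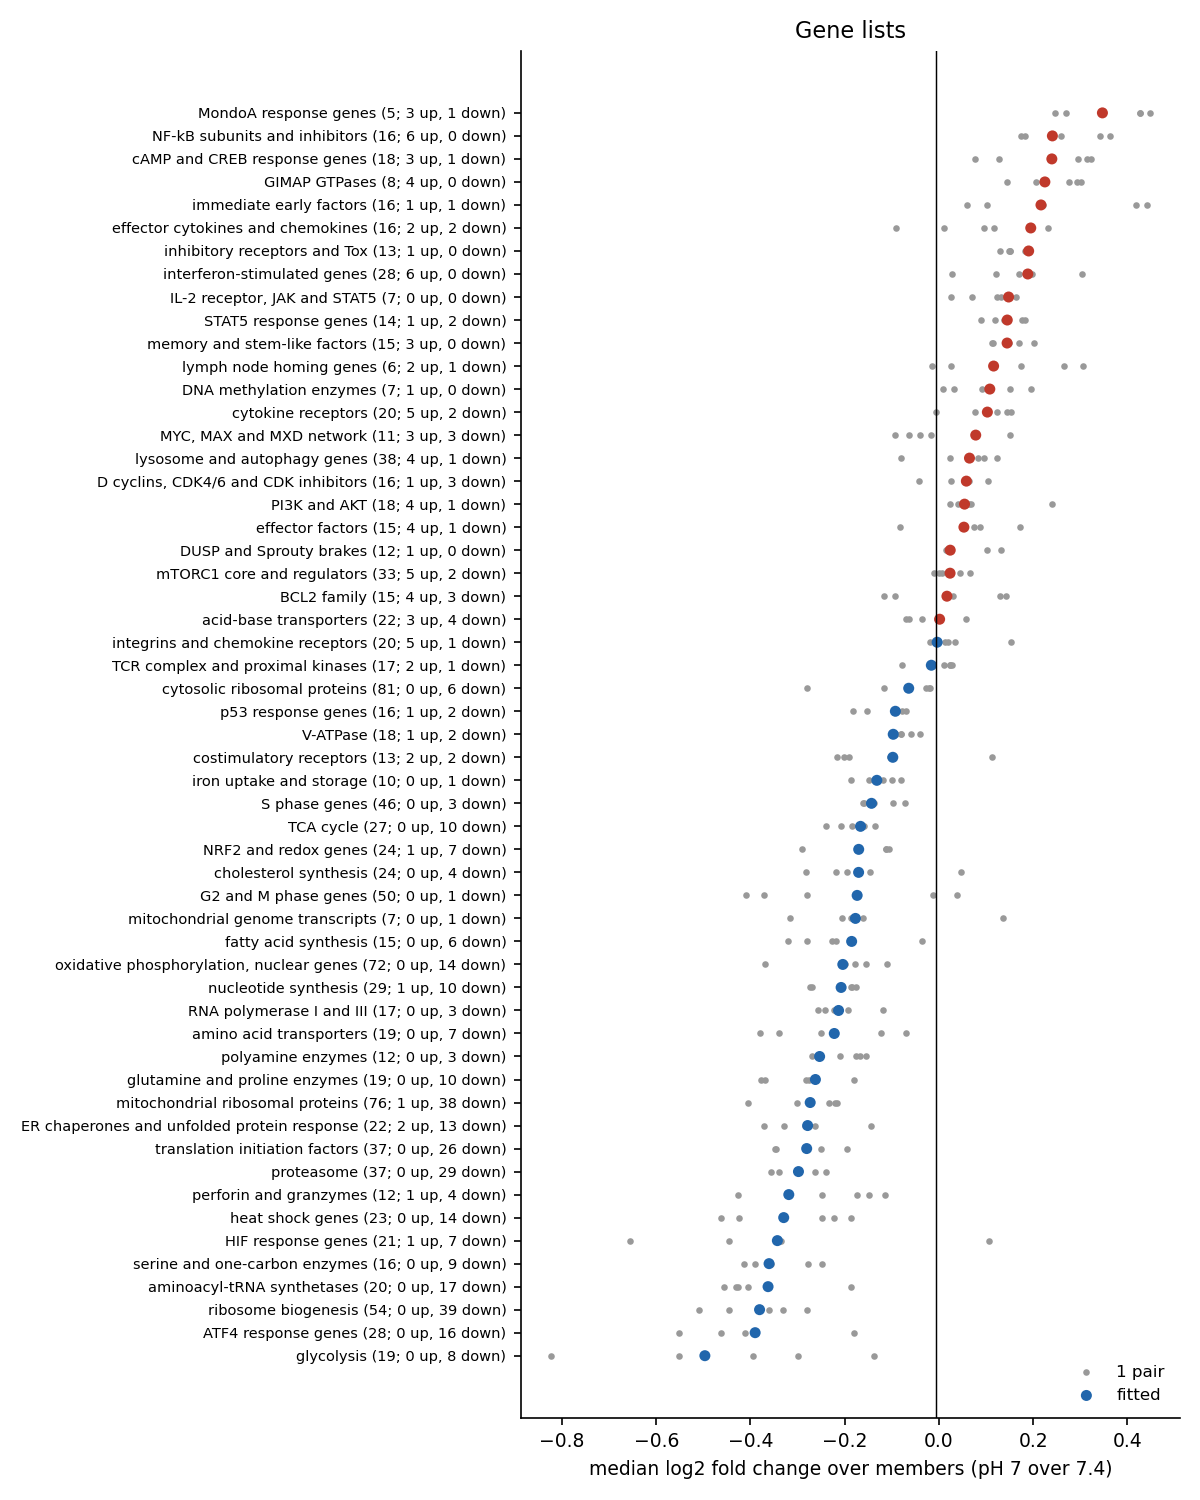
Median log2 fold change (pH 7 over pH 7.4 with IL-2) of the tested members of each gene list, as large points (red above 0, blue below) from the fit and small grey points from each of the 5 pairs. The labels give the number tested and the numbers called higher and lower, and the vertical line marks the median of all genes, -0.01. Lists of growth, translation and folding genes lie at the bottom, from -0.50 for glycolysis.

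None of the 7 genes of the IL-2 receptor, JAK and STAT5 list was called by edgeR or by DESeq2 in the fit of all libraries, though 3 were higher at an unadjusted p under 0.05, and the median was 0.15. When only the groups compared were fitted, edgeR called 4 of the 7 higher, namely Il2rg (adjusted p = 0.0184), Jak3 (adjusted p = 0.00986), Stat5a (adjusted p = 0.028) and Stat5b (adjusted p = 0.0205). Il2ra, the high-affinity chain CD25, was at 539, 544, 565, 542 and 555 CPM at pH 7.4 and at 558, 483, 481, 546 and 534 CPM at pH 7 (-0.08, SE 0.10, adjusted p = 0.657). Il2rb was at 869.8 to 1211 CPM and 914 to 1193 CPM (-0.02, SE 0.10, adjusted p = 0.926), and Il2rg at 298 to 326 CPM and 326 to 363 CPM (0.16, SE 0.08, adjusted p = 0.132). The values were 0.05 for Jak1 (adjusted p = 0.642), 0.31 for Jak3 (adjusted p = 0.0977), 0.15 for Stat5a (adjusted p = 0.248) and 0.17 for Stat5b (adjusted p = 0.0729). Jak3 and Stat5b were called without replicate 5 (adjusted p 0.0415 and 0.0364).

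Of 14 genes that STAT5 is known to induce 1 rose and 2 fell, with a median of 0.14. None rose without replicate 2 or 3 and 2 did without replicate 5, while 1 fell without any one of replicates 2 to 5. With only the groups compared, 7 were called higher and 2 lower. Socs3, a feedback inhibitor of cytokine receptors, was at 15.1, 12.8, 14.1, 18.4 and 20.3 CPM at pH 7.4 and at 23.9, 24.0, 26.9, 30.1 and 29.1 CPM at pH 7. It rose by 0.75 (SE 0.19, adjusted p = 0.00644), a call lost without replicate 2 or 3 (adjusted p 0.052 and 0.055). Cish, a feedback inhibitor that STAT5 induces, was at 407 to 443 CPM and 474 to 623 CPM without overlap, but did not pass the test (0.39, SE 0.17, adjusted p = 0.106). Socs1 had a change of 0.40 (adjusted p = 0.0787, and 0.0393 without replicate 5), Socs2 of 0.06 (adjusted p = 0.697), Pim1 of 0.09 (adjusted p = 0.453) and Bcl2 of 0.16 (adjusted p = 0.244). Pim2, a kinase that promotes survival, fell from 113, 111, 119, 108 and 142 CPM to 98.7, 73.6, 84.3, 58.5 and 63.6 CPM (-0.65, SE 0.13, adjusted p = 0.000746).

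Among 33 genes of mTORC1 and its regulators 5 rose and 2 fell (1 without replicate 2, 3 or 5), with a median of 0.02. Castor1, an arginine sensor that holds mTORC1 back, and the related Castor2 rose by 0.56 (SE 0.12, adjusted p = 0.00133) and 0.47 (SE 0.11, adjusted p = 0.00395). Sesn3, a sestrin that also restrains mTORC1, rose from 238 to 337 CPM at pH 7.4 to 397 to 431 CPM at pH 7 (0.46, SE 0.09, adjusted p = 0.000924). Rraga, a Rag GTPase that recruits mTORC1 to the lysosome, fell by 0.41 (SE 0.07, adjusted p = 0.000154). The PI3K and AKT list had 4 of 18 higher and 1 lower (none without replicate 2, 4 or 5; median 0.05), with Pik3ip1, an inhibitor of PI3K, at 16.8 to 20.2 CPM and 26.6 to 36.6 CPM (0.72, SE 0.09, adjusted p = 2.81e-06).

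Some cytotoxic genes were lower. Of 12 perforin and granzyme genes 4 fell and 1 rose, with a median of -0.32, and the number that fell was 1 without replicate 3 or 4 and 2 without replicate 2 or 5. None rose without replicate 2 or 3. Gzmb, granzyme B, was at 7211, 7607, 6696, 8458 and 9010 CPM at pH 7.4 and at 6228, 5184, 4461, 6495 and 6091 CPM at pH 7. The groups did not overlap, but the fall of 0.46 (SE 0.16, adjusted p = 0.0445) was not called when any one of replicates 2 to 5 was left out. Gzmk fell by 0.46 (SE 0.12, adjusted p = 0.00595). Prf1, perforin, was at 164 to 562 CPM and 154 to 385 CPM (-0.42, SE 0.16, adjusted p = 0.0633, and called without replicate 1). Ifng, the cytokine interferon gamma, was at 18.5, 25.2, 18.4, 30.5 and 24.1 CPM at pH 7.4 and at 18.4, 28.9, 18.9, 41.4 and 28.6 CPM at pH 7, a change of 0.18 (SE 0.23, adjusted p = 0.64). Effector cytokines and chemokines as a list had 2 of 16 higher (1 without replicate 2, 3 or 4) and 2 lower (1 without any one replicate except replicate 4), but 9 higher and 6 lower with only the groups compared.

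Genes of the T cell surface and of circulation rose in part. Cd8a, the coreceptor's alpha chain, was at 1231, 860, 926, 824 and 848 CPM at pH 7.4 and at 1596, 1358, 1464, 1291 and 1299 CPM at pH 7, a rise of 0.59 (SE 0.08, adjusted p = 2.79e-06) without overlap. Cd8b1 rose by 0.28 (SE 0.07, adjusted p = 0.00506). Cd4, a marker of the other T cell class, rose from 0.892, 0.347, 0.411, 0.166 and 0.361 CPM to 2.11, 1.88, 1.95, 1.56 and 1.44 CPM (2.34, SE 0.51, adjusted p = 0.00159), a low level in every library. Of the lymph node homing genes Ccr7, the chemokine receptor of lymph nodes, rose from 53.1, 53.1, 61.8, 52.6 and 68.4 CPM to 90.2, 91.1, 112, 84.5 and 84.8 CPM (0.69, SE 0.20, adjusted p = 0.0161, and 0.0698 without replicate 4). S1pr1, the receptor for leaving lymph nodes, rose by 0.58 (SE 0.12, adjusted p = 0.00108), and Klf2, a transcription factor that induces it, had a change of -0.20 (adjusted p = 0.435). Tcf7, the factor of memory and stem-like T cells, was at 29.9 to 53.5 CPM and 40.5 to 76.7 CPM and rose in each pair, by 0.45 (SE 0.09, adjusted p = 0.000792). It was 1 of 3 risers among 15 memory and stem-like factors, a number that was 1 without replicate 2, 3 or 5 and 7 with only the groups compared.

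Some regulators of lymphocyte survival and signalling rose. Of 8 GIMAP GTPases, proteins of lymphocyte survival, 4 rose and none fell, with a median of 0.22. Gimap3 was at 453, 492, 537, 488 and 505 CPM at pH 7.4 and at 768, 770.1, 832, 666 and 649.9 CPM at pH 7, a rise of 0.57 (SE 0.06, adjusted p = 2.22e-07) with no overlap. The other risers were Gimap8 (0.35, adjusted p = 0.00035), Gimap5 (0.26, adjusted p = 0.00122) and Gimap6 (0.25, adjusted p = 0.0153, and 0.0604 to 0.0843 without replicate 1, 2 or 4). Of 16 NF-kB subunits and inhibitors 6 rose (3 without replicate 2 or 3) and none fell, with a median of 0.24. Nfkbie, Tnfaip3 and Bcl3, each a target and regulator of NF-kB, rose by 0.67 (SE 0.10, adjusted p = 1.56e-05), 0.65 (SE 0.15, adjusted p = 0.00195) and 0.68 (SE 0.15, adjusted p = 0.00132). Dusp2, a phosphatase of MAP kinases, went from 179, 133, 125, 180.2 and 169 CPM to 279, 318, 297, 332 and 288 CPM (0.97, SE 0.10, adjusted p = 3.19e-08), the sole riser of 12 DUSP and Sprouty genes, of which 4 were called higher and 1 lower with only the groups compared.

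The number of cell cycle genes called with IL-2 depended on the fit. Of 50 genes of G2 and M phase 1 fell, Cdc20 (-0.44, SE 0.15, adjusted p = 0.0385), an activator of the anaphase-promoting complex, and that call was lost when any one replicate was left out. Without replicate 1 or 5 the number lower was 2. The median of the list was -0.17. Of 46 S phase genes 3 fell (none without replicate 1 or 2, 1 without replicate 3), with a median of -0.14. With only the groups compared, 22 of the 50 and 12 of the 46 were called lower. Among D cyclins, CDK4/6 and CDK inhibitors 1 of 16 rose and 3 fell, including Cdkn2a, from 31.3 to 40.4 CPM at pH 7.4 to 18.7 to 21.5 CPM at pH 7 (-0.79, SE 0.13, adjusted p = 4.39e-05), and Cdk4 (-0.32, SE 0.09, adjusted p = 0.00844). The BCL2 family had 4 of 15 higher, with Bcl2l11 (BIM), which promotes death, at 0.52 (SE 0.12, adjusted p = 0.00295), and 3 lower (1 without replicate 1 and none without any one of the others). The 4 were 2 without replicate 2.

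The same step of pH without IL-2, measured in other libraries, gave fewer calls: 232 genes passed the test (1.68%), 188 higher at pH 7 (1.36%) and 44 lower (0.318%). The difference of the changes with and without IL-2 was itself called in 662 genes (4.79%), positive in 303 (2.19%) and negative in 359 (2.60%), where positive means higher with IL-2. The numbers of these calls without IL-2 and of called differences depended on single replicates: without replicate 2 they were 35 and 101, and without replicate 3 they were 90 and 98. Without replicate 4 they were 141 and 304, and without replicate 5 154 and 378. Of the genes called in both settings 67 had the same direction and 8 opposite directions.

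The metallothioneins fell in both settings. Without IL-2, Mt2 changed by -1.46 (adjusted p = 5.94e-06) and Mt1 by -1.36 (adjusted p = 2.75e-06), and the differences were -0.46 (adjusted p = 0.314) and 0.01 (adjusted p = 0.98). Tmem273 rose without IL-2 by 1.15 (adjusted p = 0.000725) and Slc4a11 by 0.72 (adjusted p = 0.000834), the latter with a difference of 0.00 (adjusted p = 0.995). In Pou6f1, by contrast, the change was 0.09 without IL-2 (adjusted p = 0.979) and the difference 1.16 (adjusted p = 3.43e-05). Without IL-2 the value was 0.00 for Txnip (difference 0.77, adjusted p = 0.000984), -0.12 for Gimap3 (difference 0.69, adjusted p = 6.35e-05), -0.12 for Tfrc (difference -0.84, adjusted p = 0.00628) and 0.04 for Cd8a (difference 0.55, adjusted p = 0.00343). Dtx4 rose in both settings, by 0.56 without IL-2 (adjusted p = 0.0313), and the difference was 1.23 (adjusted p = 0.00147). Of the 12 largest rises 6 had a positive difference called, and of the 12 largest falls 4 had a negative one. Over all genes tested these shares were 2.19% and 2.60%. The genes were ranked by their change with IL-2, which is a term of the difference. Their counts therefore depend on that choice and are a description only.

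In the G2 and M phase list most differences were called. Without IL-2 its median was 0.88 and 40 of 50 genes rose at pH 7, and in 43 the difference was called negative. The 40 became 6 without replicate 2 and 22 without replicate 3, and the 43 became 10 without either. Espl1 (separase) had a value of -0.12 with IL-2 (adjusted p = 0.713) and rose by 1.33 without (adjusted p = 0.00101), a difference of -1.45 (adjusted p = 0.00393). Other large negative differences were those of BC030867 (-1.66), Pbk (-1.63), a mitotic kinase, Ankle1 (-1.50), a nuclease, and E2f7 (-1.43), a repressor of the E2F family. Mycn fell with IL-2 and rose without it (0.52, adjusted p = 0.0431, difference -1.09, adjusted p = 0.000538).

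Interferon-stimulated genes went the other way. With IL-2, 6 of 28 rose (3 without replicate 2 or 3, 13 with only the groups compared), with a median of 0.19, while without IL-2 9 fell, with a median of -0.34, and 12 differences were called positive. Those 9 and 12 were 1 and 4 without replicate 2 and 3 and 4 without replicate 3. Irf1, an interferon response factor, rose with IL-2 from 278 to 410 CPM at pH 7.4 to 464 to 589 CPM at pH 7 (0.63, SE 0.17, adjusted p = 0.00968, and 0.0801 without replicate 2), with a difference of 0.81 (adjusted p = 0.0486). Gbp5, a guanylate-binding protein, rose by 0.58 (SE 0.11, adjusted p = 0.000563, difference 0.80, adjusted p = 0.00398). Ifng fell without IL-2 (-1.28, adjusted p = 0.00813), and its difference was 1.46 (adjusted p = 0.0173), followed by Ifit1 at 1.22 (adjusted p = 0.0238). Gbp10 had a difference of 1.53 (adjusted p = 0.003), though only 15.9% of its windows are unique to it.

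**Figure D4:**
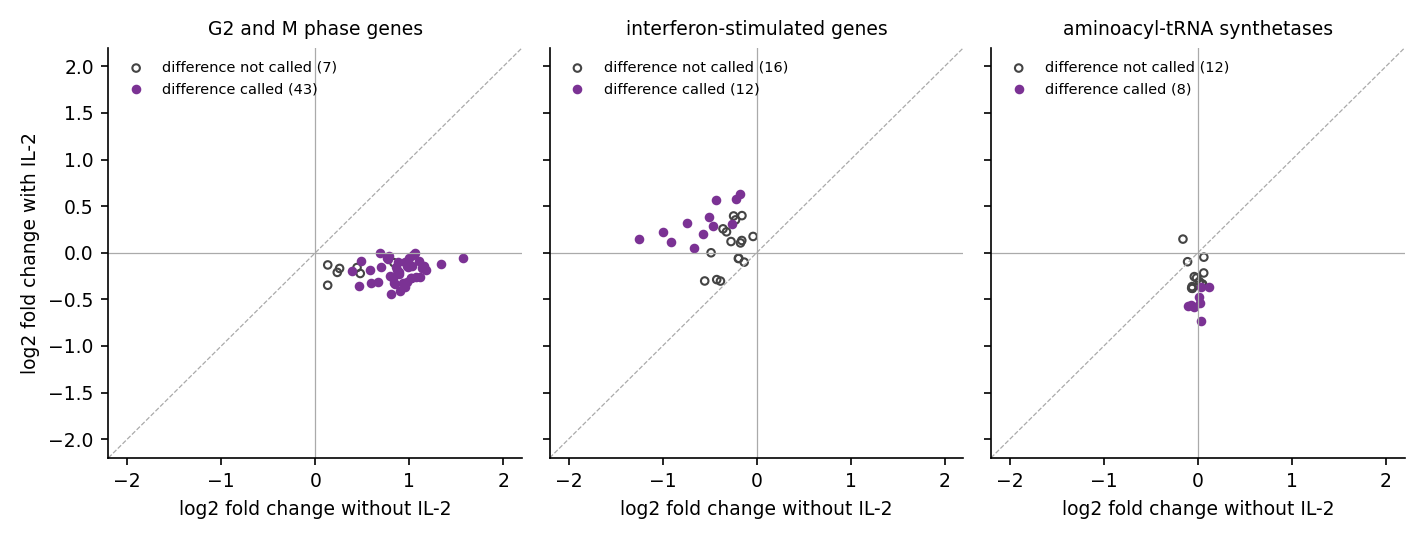
Log2 fold change (pH 7 over pH 7.4) with IL-2, on the vertical axis, against that without IL-2, on the horizontal axis, for the tested genes of 3 lists. Filled points are genes whose difference was called and the dashed line marks equal changes. The G2 and M genes lie to the right and near 0 on the vertical axis, the interferon-stimulated genes mostly at the upper left, and the synthetases below 0 and near 0 on the horizontal axis, 8 of 20 with a called difference.

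The levels at pH 6.6 with IL-2 are given beside these for description, since pH 7 and pH 6.6 were both compared with the same pH 7.4 libraries. Of the 12 largest falls 9 lay lower still at pH 6.6, with ranges below those at pH 7, and in the other 3 the ranges overlapped. Tfrc was at 111 ± 14 CPM (SD, n = 5) at pH 6.6, Bcat1 at 2.97 ± 0.959 CPM, Mt1 at 9.45 ± 2.48 CPM and Cdkn2a at 4.29 ± 0.933 CPM, all below pH 7, while Mt2, at 9.27 ± 2.93 CPM, overlapped its pH 7 range. Of the 12 rises 3 were higher still at pH 6.6: Dtx4 (79.8 ± 10.3 CPM), Pou6f1 (103 ± 18.5 CPM) and Ikzf2 (110 ± 30.4 CPM). Tmem273 (21.3 ± 9.09 CPM) and Gpr155 (4.62 ± 2.75 CPM) were instead below their pH 7 ranges, and the other 7 rises overlapped. Txnip was at 2352 ± 166 CPM and Myc at 54.8 ± 10.4 CPM at pH 6.6.

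**Figure D5:**
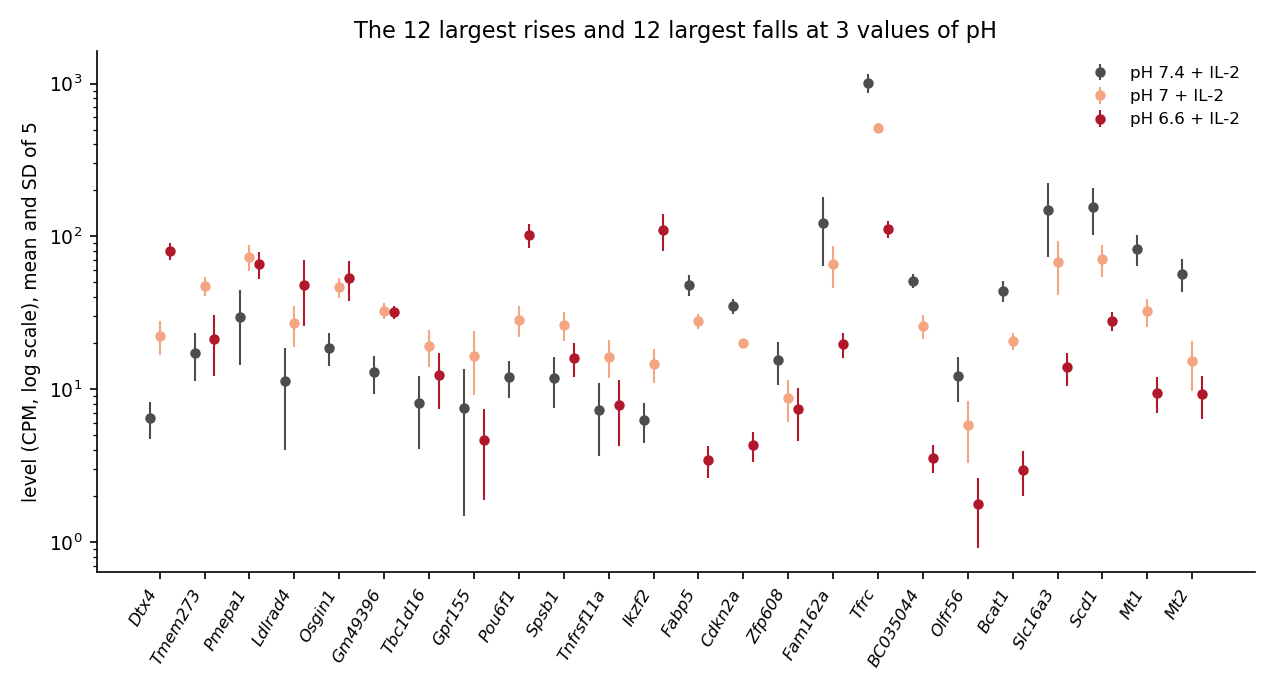
Mean and SD over 5 libraries of the level (CPM, log axis) of the 12 largest rises, at the left, and the 12 largest falls, at the right, at pH 7.4, pH 7 and pH 6.6 with IL-2. Most falls continue to pH 6.6, whereas the rises split, with Dtx4, Pou6f1 and Ikzf2 higher at pH 6.6 and Tmem273 and Gpr155 lower than at pH 7.

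The other lists had medians from -0.17 to 0.22. Immediate early factors had 1 of 16 higher (none without replicate 2 or 3, 2 without replicate 4 or 5) and 1 lower (none without replicate 1, 2 or 4), with a median of 0.22, and 7 of 15 higher and 2 lower with only the groups compared. Nr4a1, an early gene of receptor signalling, had a value of 0.35 (adjusted p = 0.462). Inhibitory receptors and Tox had 1 of 13 higher (none without any one of replicates 1 to 4, and 5 with only the groups compared, where 2 were lower), with a median of 0.19. DNA methylation enzymes had 1 of 7 higher (none without replicate 2, 3 or 4) and a median of 0.11. Cytokine receptors had 5 of 20 higher (1 without replicate 2, 3 without replicate 1, 3 or 4) and 2 lower (none without replicate 2 or 3, 1 without replicate 1 or 4), with a median of 0.10. Ifngr2, a chain of the interferon gamma receptor, was among those that rose, at 0.90 (SE 0.12, adjusted p = 3.25e-06). Lysosome and autophagy genes had 4 of 38 higher (none without replicate 2, 1 without replicate 3, 2 without replicate 4, 11 with only the groups compared) and 1 lower (none without any one of replicates 2 to 5), with a median of 0.06.

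Effector factors had 4 of 15 higher and 1 lower (none without any one of replicates 2 to 5), with a median of 0.05. Integrins and chemokine receptors had 5 of 20 higher (3 without replicate 2 or 3) and 1 lower (none without replicate 1, 4 or 5), with a median of 0.00, and Itgae, the integrin CD103, rose by 0.86 (SE 0.13, adjusted p = 3.38e-05). The Itgae call was lost in an edgeR fit that did not pair the replicates (adjusted p = 0.414). The TCR complex and its proximal kinases had 2 of 17 higher and 1 lower (median -0.02), the same numbers as without any one replicate. The p53 response list had 1 of 16 higher (none without replicate 2, 3 or 5) and 2 lower (none without replicate 2, 3 or 5, 1 without replicate 4), with a median of -0.09. Costimulatory receptors had 2 of 13 each way and a median of -0.10. Without replicate 2 none was higher and 1 lower, without replicate 3 none was called, and without replicate 4 or 5 the number higher was 1, while 4 were higher and 6 lower with only the groups compared. NRF2 and redox genes had 1 of 24 higher and 7 lower (3 without replicate 2 or 4, 4 without replicate 3), with a median of -0.17.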

How the data were processed

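RNA was sequenced from CTLs with stranded libraries of polyadenylated RNA on an Illumina HiSeq instrument. The authors deposited 1 table per library with the count of reads on each of 48709 mouse genes, not normalized. Per the labels, the submitters' processing notes name cutadapt 1.8, STAR 2.5.2b, HTSeq 0.6.1 and GRCm38. The annotation release and the strand setting of the counting are not given in the sources used here. Closing rows that name no gene were left out. Reads aligned to several places made up 35.5% to 37.5% of the reads in the tables at pH 7 and 36.8% to 40.6% at pH 7.4 with IL-2 and were not counted on genes, which lowers genes with near-identical copies. Symbols for 48349 identifiers came from GENCODE M21.

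Genes were filtered with filterByExpr of edgeR 4.0.16 in R 4.3.3 at a minimum count of 10, which left 13819. After TMM scaling, the 35 libraries entered 1 quasi-likelihood fit (robust), whose design had each group as a term and the replicate number of the titles as a block. The common biological coefficient of variation was 0.120. Contrasts were pH 7 against pH 7.4 with IL-2, the same without IL-2, and the difference of both. Adjusted p is Benjamini-Hochberg over all genes tested, with a threshold of 0.05. The study names paired tests in general, and the labels number the replicates. Same-numbered libraries at pH 7 and pH 7.4 with IL-2 deviated together from their group means in 5 of 5 pairs (r from 0.187 to 0.609, against a median of -0.064 for 20 other pairs), so the numbers were taken to pair the libraries. No 2 libraries of a group agreed within sampling noise (lowest chi-square per degree of freedom 6.65).

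The comparison, the 56 gene lists and the rules were chosen with earlier results of these data known, and the lists were written from general knowledge. They are described by counts and medians, with no test. Named genes were, first, the 12 largest rises and 12 largest falls among called protein-coding genes with a mean of at least 3 log2 CPM and the same sign in 5 of 5 pairs. Further named genes were up to 4 called members of each list with the largest change, every member of lists of at most 12, fixed genes of IL-2 signalling, effector function and acid sensing, and the 5 largest differences each way. Cell type markers were named beside them. Promoters were taken from RefSeq (GRCm38.p6), and the share of windows of 50 bases found in no other gene from GENCODE transcripts. A few named genes are not reported here. The steps were tested on simulated data. Alternatives were RLE scaling, DESeq2 1.42.0, other filters and fits, and leaving out each replicate.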

Additional observations from a re-analysis of the deposited data

Results flagged for a closer look

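A library was counted as far from the others where its gap to the nearest of the other 4 libraries of its group was over 0.71 of the group's range, a rule that flags about 1 in 20 groups by chance. Among 260 combinations of a named gene and a group this held in 32, and in 28 of them the library was replicate 1. Replicate 1 at pH 7.4 with IL-2 lay above the other 4 libraries in Pmepa1 (56.4 CPM), Ldlrad4 (24.1 CPM), Gpr155 (18.1 CPM), Spsb1 (19.3 CPM), Tnfrsf11a (13.6 CPM), Nfkbie (20.8 CPM), Gbp5 (99.2 CPM), Cd8a (1231 CPM), Itgae (250.3 CPM), Tgfb3 (28.7 CPM), H2-DMa (34.5 CPM) and H2-Aa (12.1 CPM). Replicate 1 at pH 7.4 with IL-2 lay below the other 4 libraries in BC035044 (41.9 CPM), Zfp608 (7.02 CPM), Mrps18b (26.9 CPM), Castor1 (7.22 CPM) and Cdc20 (127 CPM). Replicate 1 at pH 7 with IL-2 lay above the other 4 libraries in Gpr65 (77.7 CPM), Gbp5 (154 CPM), Ifit1 (16.6 CPM), Gbp10 (61.7 CPM), Tgfb3 (36.8 CPM) and H2-Aa (20.1 CPM). Replicate 1 at pH 7 with IL-2 lay below the other 4 libraries in Slc16a3 (20.7 CPM), Pim1 (165 CPM), Ldha (1116 CPM), Tpi1 (244 CPM) and Cdc20 (80.0 CPM). In other replicates the libraries apart were replicate 3 at pH 7.4 for Slc7a5 (266 CPM), replicate 4 at pH 7.4 for Ncl (2243 CPM), replicate 3 at pH 7 for Ccr7 (112 CPM) and replicate 5 at pH 7.4 for Ankle1 (27.2 CPM).

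The change between pH 7 and pH 7.4 differed with and without IL-2, by the edgeR test of the difference itself, in 61 of the 130 named genes. Over all genes tested the share called was 4.79%. Values are the log2 fold change with IL-2 minus that without. Those of genes chosen for a large difference, or for a large change with IL-2, are not independent of that choice. Differences above 0 were those of Dtx4 (1.23), Pmepa1 (0.77), Ldlrad4 (0.94), Gm49396 (0.96), Pou6f1 (1.16), Ikzf2 (1.08), Mxd1 (0.51), Txnip (0.77), Arrdc4 (1.09), Sesn3 (0.47), Ifng (1.46), Tcf7 (0.58), Nfkbie (0.75), Gbp5 (0.80) and Irf1 (0.81). Also above 0 were Gimap3 (0.69), Gimap8 (0.38), Gimap5 (0.31), Dusp2 (0.58), Pik3ip1 (0.90), Cd8a (0.55), Cd8b1 (0.33), Itgae (0.63), Ifit1 (1.22), Gbp10 (1.53), Ski (0.49), H2-DMa (0.68), H2-Aa (1.41) and Cd74 (1.72). Differences below 0 were those of Scd1 (-0.94), Tfrc (-0.84), Zfp608 (-0.64), Cdkn2a (-0.87), Mycn (-1.09), Slc7a5 (-0.73), Shmt2 (-0.54), Ahcy (-0.66), Psat1 (-0.54), Ncl (-0.62), Cars (-0.77), Nars (-0.54), Iars (-0.47), Tars (-0.49), Ldha (-0.70) and Tpi1 (-0.88). Also below 0 were Psmc1 (-0.39), Hspd1 (-0.50), Hspa9 (-0.40), Hsp90b1 (-0.43), Mrps18b (-0.48), Atp5b (-0.40), Scd2 (-0.62), Gzmk (-0.64), Bsg (-0.50), Cdkn2b (-0.65), Cdc20 (-1.24), Espl1 (-1.45), BC030867 (-1.66), Pbk (-1.63), Ankle1 (-1.50) and E2f7 (-1.43).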

How the results depend on the processing

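With IL-2, the 2623 calls became 1660 in the fit with no replicate block and 4388 when only the groups compared were fitted with the replicate block, and 846 had a change of at least 0.5 as well. Leaving out replicates gave 1283 to 2425. Without IL-2, the 232 calls became 56 with no replicate block, 942 with only the groups compared, and 35 to 332 when a replicate was left out. The 662 called differences became 1007 by DESeq2, 326 with a looser filter, 177 with no replicate block, 1632 with only the groups compared, 430 with a difference of at least 0.5 as well, and 98 to 711 when a replicate was left out. The looser filter tests more genes. The causes of the other shifts were not tested. RLE scaling, the stricter filter and the fit that is not robust gave 2655, 2491 and 2633 calls with IL-2, and no call with IL-2 changed direction under any setting. Of the 56 list medians 32 were below 0, and 30 to 33 under the alternatives. Of the 24 largest changes 22 were called under every setting, the exceptions being Slc16a3 and Zfp608, the latter with no replicate block (adjusted p = 0.0666). With no replicate block the calls of 15 named genes were lost, Gzmb, Tcf7, S1pr1, Slc7a5, Itgae and Tgfb3 among them. At 23505962 to 30734999 counts per library, changes of genes near 1 CPM, such as Cd4 and Arrdc4, rest on few reads.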

Other observations

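The lists here were drawn up after the values had been seen, from genes related to the largest changes, so their counts are descriptions and support nothing. Among 24 tested genes of the TGF-beta pathway and its known response, to which Pmepa1, Ldlrad4 and Spsb1 belong, 11 rose and 2 fell at pH 7 with IL-2, with a median of 0.23. Smad7, the inhibitory Smad, rose by 0.65 (SE 0.10, adjusted p = 3.5e-05), and the repressors Ski and Skil rose by 0.67 (SE 0.10, adjusted p = 2.09e-05) and 0.59 (SE 0.12, adjusted p = 0.00108). Klf11, a TGF-beta induced factor, was at 7.38, 8.40, 6.90, 8.73 and 6.82 CPM at pH 7.4 and at 14.8, 14.8, 16.2, 15.1 and 14.3 CPM at pH 7 (0.98, SE 0.21, adjusted p = 0.00138), with no overlap. Klf10 rose by 0.79 (SE 0.26, adjusted p = 0.0292, not called without replicate 2, 3 or 4) and Tgfb3, a ligand, by 0.83 (SE 0.19, adjusted p = 0.00231). Neither was called in the edgeR fit with no replicate block, where the adjusted p of Tgfb3 was 0.303. Cdkn2b, an inhibitor of CDK4 and CDK6 that TGF-beta is known to induce, fell by 0.66 (SE 0.12, adjusted p = 0.000194). Without IL-2, 2 of the 24 rose and the median was 0.11.

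Of 11 zinc and metallothionein genes 6 fell and none rose, with a median of -0.24. Beside Mt1 and Mt2, Slc30a1, the zinc exporter that MTF1 is known to induce, had a change of -0.44 (SE 0.15, adjusted p = 0.036), which was not called without replicate 2, 3 or 4. Of 10 genes of MHC class II and its antigen loading 8 rose with IL-2 and none fell, with a median of 0.69. H2-DMa was at 34.5, 23, 24.7, 21.6 and 23.6 CPM at pH 7.4 and at 61.5, 45.3, 48.6, 35.5 and 33.1 CPM at pH 7 (0.81, SE 0.12, adjusted p = 1.11e-05). H2-Oa rose by 0.67, H2-Aa by 0.88 and Ciita, the master regulator of these genes, by 1.07 (SE 0.21, adjusted p = 0.000616). Cd74, the invariant chain, rose with IL-2 (0.52, SE 0.16, adjusted p = 0.0201, not called without replicate 2, 3 or 4) and fell without it (-1.20, adjusted p = 0.00281), a difference of 1.72 (adjusted p = 0.000984). The B cell and dendritic cell marker sums were higher at pH 7 as well, at the low levels given with the markers, and their part in these values was not tested.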
